A study of Mus musculus with 9 samples.

Results

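The transcripts of p53 (Trp53) and of 9 of its classical target genes (Mdm2, Cdkn1a, Ccng1, Bbc3, Pmaip1, Eda2r, Phlda3, Zmat3 and Trp53inp1) were followed in mouse retina. They were taken by symbol from a table of read counts for 55414 genes, and all 10 were found, each in 1 row. The retinas came from Balb/c mice, an albino strain whose photoreceptors are easily injured by bright light. There were 3 groups of 3 libraries, namely control retina, retina after light damage, and retina after light damage with A74. The title of the series names the ATP-gated channel P2RX7 as the target of inhibition. The sources used here do not state what A74 is, its dose or vehicle, the age and sex of the mice, the length of the light exposure or the time of harvest. Separate animals are not stated for the replicates either, and p-values therefore cover only the spread of these samples. Y-linked genes had counts in replicates 1 and 2 of control and of light damage but not in replicate 3. Neither group is thus made only of technical repeats of the same sample. Between replicates alike in these counts, the spread could be technical.

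p53 is a transcription factor that is held at a low level by the ubiquitin ligase MDM2 and accumulates after DNA damage and other stress. It then raises genes that stop the cell cycle, genes that trigger apoptosis and Mdm2 itself, which closes a feedback loop. Because p53 is controlled mainly at the level of the protein, its own mRNA says little about its activity, and the joint behaviour of its targets is commonly read instead. Cdkn1a, which encodes the CDK inhibitor p21, is the best known of these targets and also responds to other transcription factors, so the question followed here is whether Cdkn1a moved with the other targets.

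The p53 protein binds as a tetramer to a pair of adjacent 10-base elements. These were searched on both strands in RefSeq promoter windows (build GRCm38.p6, 250 bases before to 50 bases after each annotated start). The element used was the p53 consensus decamer, which reads the same on both strands. A paired site was defined as a pair of decamers at most 13 bases apart with at most 2 mismatches, none at the invariant C and G. The windows covered 7 of the 10 genes (10 windows), and Pmaip1, Zmat3 and Trp53inp1 had no entry. A paired site lay in a window of Cdkn1a and in the window of Ccng1, against 4.09% of all 32851 windows. Decamers without mismatch lay in the same windows of Cdkn1a and Ccng1 and in the windows of Mdm2 and Trp53, against 8.36% of all windows. The windows of Mdm2 and Trp53 held no paired site. The 4 sequences are shown so that a promoter window of Cdkn1a, the gene that moved most firmly, can be read beside those of Mdm2 and Ccng1, which were steady, and of Trp53 itself. Sites outside these windows were not searched, and whether the sequences bear on the changes was not tested. Capitals mark the decamers.
Cdkn1a: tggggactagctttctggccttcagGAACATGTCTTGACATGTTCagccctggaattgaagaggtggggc
Ccng1: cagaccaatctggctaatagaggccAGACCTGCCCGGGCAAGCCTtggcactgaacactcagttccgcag
Mdm2: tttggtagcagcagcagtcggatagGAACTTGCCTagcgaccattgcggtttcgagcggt
Trp53: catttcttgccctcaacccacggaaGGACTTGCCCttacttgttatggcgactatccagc
The Cdkn1a run is chr17:29090903-29090972 on the plus strand, with its paired site 51 to 32 bases before the upstream of its annotated starts. The window of the downstream start held no match. The Ccng1 run is chr11:40755437-40755506 on the minus strand, with its paired site 195 to 176 bases before the start. The Mdm2 run is chr10:117710910-117710969 on the minus strand and the Trp53 run chr11:69580259-69580318 on the plus strand. The paired sites of Cdkn1a and Ccng1 each had 1 mismatch to the consensus. No window of Bbc3, Eda2r or Phlda3 held a match, which says only that these letters are not in those windows. A match in a window is a description of the sequence, not a measured binding site.

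Libraries held 14787972 to 18740434 counts, and 17272 genes passed the filter on low counts. Levels are given as CPM, the counts per 1000000 counts of the TMM-scaled library total. Rod markers, which define the labelled tissue, were abundant and summed to 36782 to 67636 CPM. All 3 A74 libraries and control replicate 3 were high in Xist (17227 to 22253 counts, at most 7 elsewhere), and Y-linked genes had counts only in replicates 1 and 2 of control and of light damage. Genes of anterior eye tissue, a list written in earlier work after these data had been seen, summed to 138 to 274 CPM in 5 libraries. They summed to 12.4 to 15.9 CPM in control replicate 3, light damage replicate 3 and A74 replicates 2 and 3. The sample titles and library names give no batch. All 10 genes passed the filter, Eda2r only through its counts in the light damage group. Its differences against that group were thus in part set by the filter. Eda2r is left out of the counts and medians over members in the comparisons with light damage, except where it is said to be included. Pmaip1 passed through light damage replicate 2 and A74 replicates 1 and 2, with no control library at the cutoff. Its differences against control were thus also in part set by the filter, but it is kept in the counts and medians.

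Light damage was first compared with control, which asks whether the injured retina carries a p53 target response. Cdkn1a rose 2.82-fold and Phlda3 1.59-fold, and the other 8 genes were not called by edgeR's quasi-likelihood test at an adjusted p under 0.05. The members called were thus 2 of the 9 other than Eda2r, beside 25.8% of all genes tested. Both were called higher, beside 13.0% of all genes, and none lower, beside 12.8%. The log2 fold change was above 0 for 8 of these 9 genes, beside 51.1% of all genes, with a median of 0.23 beside 0.0080. For Cdkn1a and Trp53 every light damage library lay above every control library, 2 of 9 genes beside 20.6% of all genes. Mdm2, Ccng1, Zmat3 and Trp53inp1, which are among the most highly expressed of the set and so the most precisely measured, stayed within a narrow interval around their control level.

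**Figure D1:**
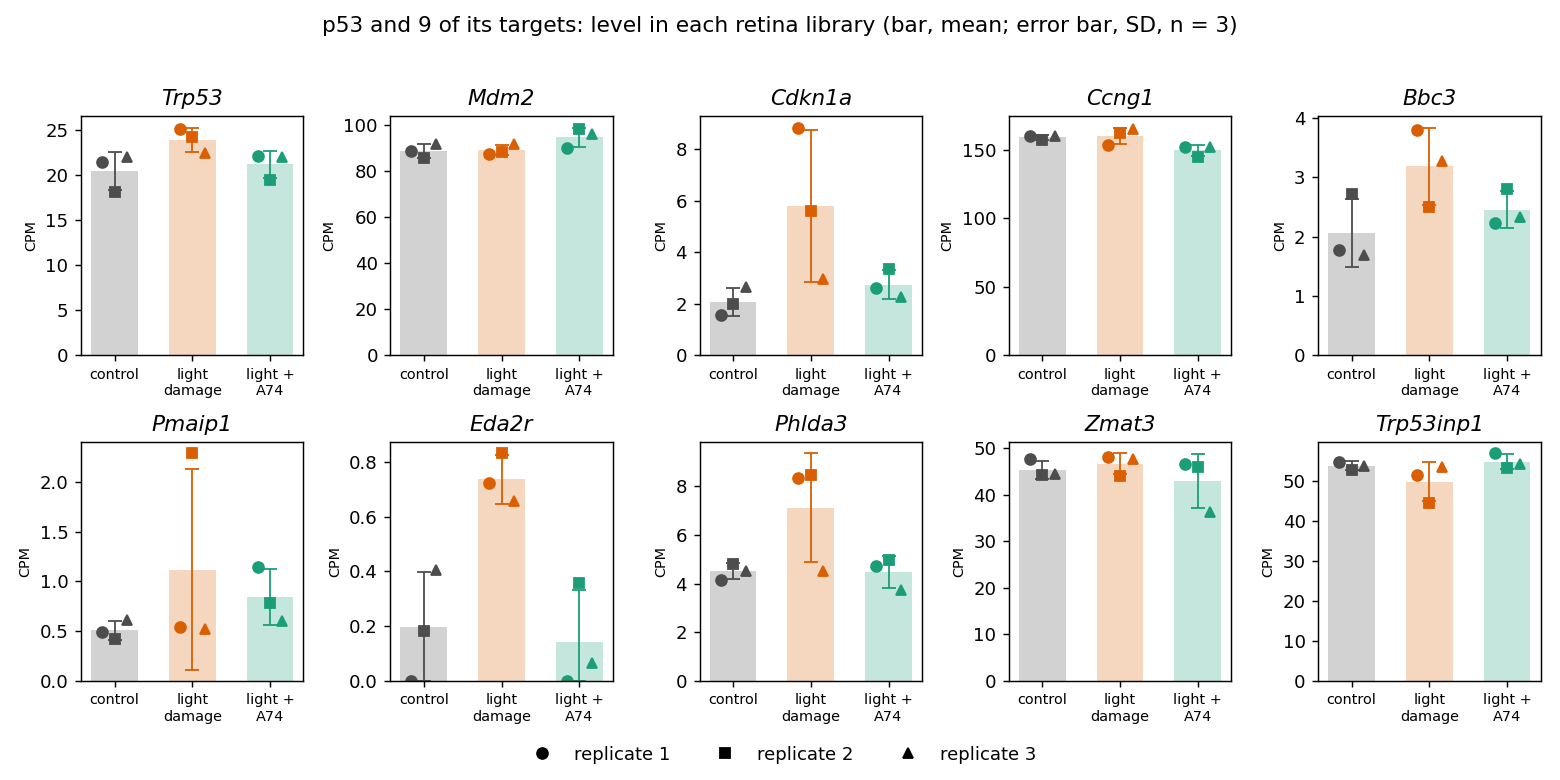
Level of each gene in CPM (y axis, linear from 0) in the 3 groups (x axis), with 1 point per library shaped by replicate number, bars at the mean and error bars of 1 SD (n = 3). Cdkn1a and Phlda3 are high in light damage replicates 1 and 2 and near the control level in replicate 3, while Mdm2, Ccng1 and Zmat3 are level across control and light damage.

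Cdkn1a had 22, 33 and 39 counts in control replicates 1 to 3 and 147, 108 and 45 counts in light damage replicates 1 to 3. In CPM these were 1.55, 1.99 and 2.63 in control and 8.84, 5.62 and 2.95 after light damage. Every light damage library lay above every control library, but replicate 3 only just, and the other 2 were far above it. Control averaged 2.06 ± 0.541 CPM and light damage 5.80 ± 2.95 CPM (SD, n = 3 in each). On the log2 scale the change was 1.49, with SE 0.35 and a 95% interval of 0.73 to 2.26 (edgeR adjusted p = 0.00816). The call held in all 9 fits that leave out 1 library, with log2 fold changes from 1.08 to 1.80.

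Phlda3 encodes a pleckstrin homology protein that competes with AKT for membrane lipids. It had 4.17, 4.83 and 4.52 CPM in control replicates 1 to 3 and 8.36, 8.48 and 4.53 CPM in light damage replicates 1 to 3. Light damage replicate 3 lay inside the control range, so the groups overlapped, and the other 2 libraries were nearly alike. The log2 fold change was 0.66 (SE 0.22, 95% interval 0.21 to 1.12, edgeR adjusted p = 0.0318). The call was lost without any 1 of the control libraries or light damage replicates 1 or 2 (edgeR adjusted p = 0.0627 to 0.151), and the adjusted p was 0.000712 without light damage replicate 3.

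Trp53 itself had 18 to 21.9 CPM in control and 22.4 to 25.1 CPM after light damage, with no overlap between the groups. Its log2 fold change of 0.23 (SE 0.10, 95% interval 0.02 to 0.43) was not called (edgeR adjusted p = 0.105). Mdm2, the target that limits p53, had 86.0 to 92.0 CPM in control and 87.6 to 91.8 CPM after light damage. The 2 groups overlapped almost completely, and the log2 fold change was 0.0068 (95% interval -0.11 to 0.13, edgeR adjusted p = 0.948).

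Ccng1 encodes cyclin G1, which recruits a phosphatase to MDM2. It had 157, 160 and 160 CPM in the control libraries and 154 to 165 CPM after light damage, a log2 fold change of 0.011 (95% interval -0.10 to 0.12, edgeR adjusted p = 0.913). Zmat3, an RNA-binding zinc finger protein gene, had 44.2 to 47.6 CPM in control and 44.0 to 48.2 CPM after light damage (95% interval of the log2 fold change -0.14 to 0.22). Trp53inp1, which encodes a stress-induced nuclear protein linked to p53 and autophagy, had 52.8 to 55.0 CPM in control and 44.5 to 53.7 CPM after light damage. Its log2 fold change was -0.11 (95% interval -0.27 to 0.04, edgeR adjusted p = 0.289). The upper ends of these 4 intervals, Mdm2 included, lie below the lower end of 0.73 for Cdkn1a, as does that of Trp53. The intervals of Phlda3 (0.21 to 1.12), Bbc3 (0.08 to 1.16), Pmaip1 (-0.0089 to 2.36) and Eda2r (0.35 to 3.39) overlap that of Cdkn1a (0.73 to 2.26).

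**Figure D2:**
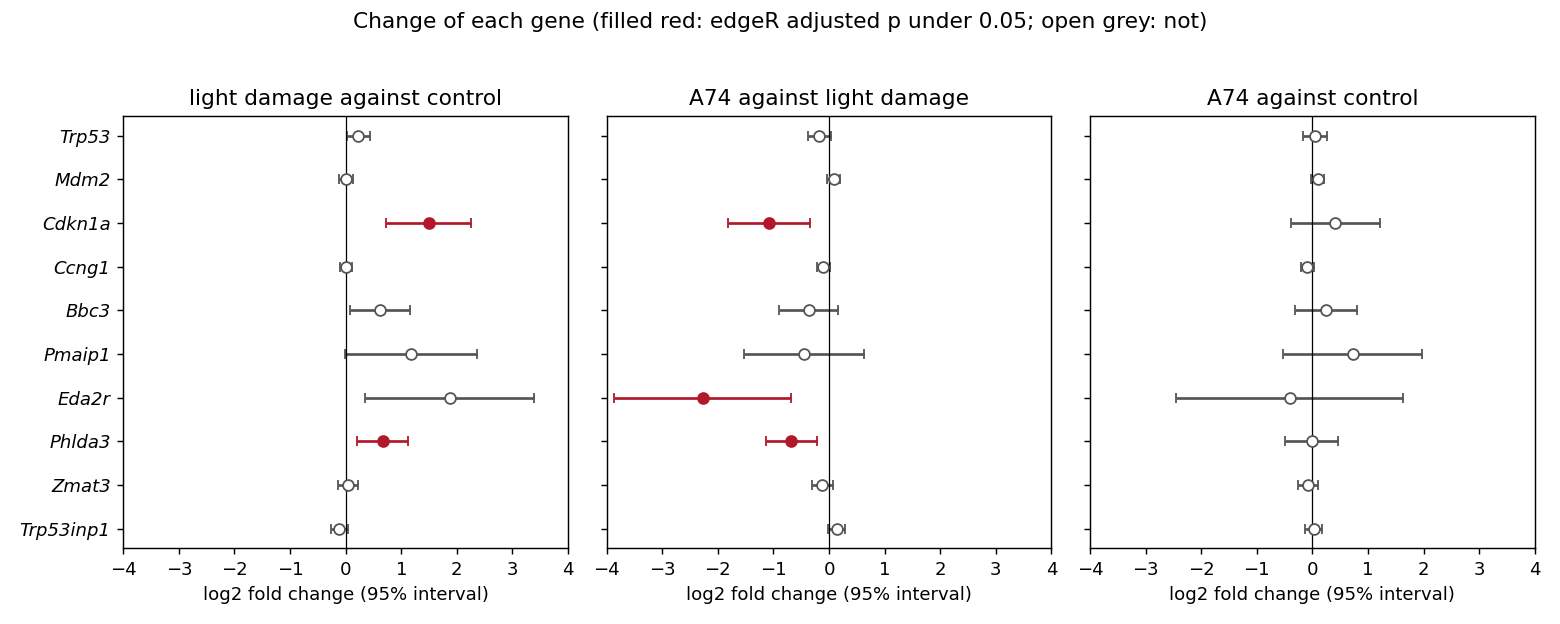
Log2 fold change of each gene (x axis) in the 3 comparisons, with 95% intervals from the edgeR fit. Filled red points passed an adjusted p of 0.05. Intervals are narrow around 0 for Mdm2, Ccng1, Zmat3 and Trp53inp1 and wide for Pmaip1 and Eda2r, which have few counts.

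The apoptotic targets had few counts, which limits what could be seen. Bbc3 encodes PUMA and Pmaip1 encodes NOXA, both BH3-only proteins that release the brake on mitochondrial apoptosis. Bbc3 had 25, 45 and 25 counts in control and 63, 48 and 50 after light damage. All light damage counts were above the control counts, but in CPM the lowest light damage library (replicate 2, 48 counts) was below the highest control library (replicate 2, 45 counts). Its log2 fold change was 0.62 (SE 0.26, edgeR adjusted p = 0.0865). Pmaip1 had 7, 7 and 9 counts in control and 9, 44 and 8 after light damage. A single library, light damage replicate 2, stood apart, and the log2 fold change went from 1.18 (edgeR adjusted p = 0.137) to 0.08 without it. Eda2r, which encodes a receptor of the TNF receptor family for ectodysplasin A2, had 0, 3 and 6 counts in control and 12, 16 and 10 after light damage. The groups did not overlap, and its log2 fold change of 1.87 (SE 0.72, 95% interval 0.35 to 3.39) was not called (edgeR adjusted p = 0.0667).

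Cdkn1a was then set against each of the other genes within libraries. Its log2 change from the control mean was 2.07, 1.42 and 0.52 in light damage replicates 1 to 3. The median of the other 9 genes, Eda2r included, was 0.09, 0.24 and 0.05 in the same libraries. Cdkn1a thus exceeded the median of the others by 1.98, 1.18 and 0.47 on the log2 scale, against -0.35 to 0.35 in control libraries. From the fit, its change less the median change of the other 9, Eda2r again included, was 1.27. The log2 ratio of Cdkn1a to Mdm2 was -5.72 to -5.06 in control and -4.90 to -3.29 after light damage, a mean shift of 1.33 with no overlap. Ratios of Cdkn1a to Trp53, Ccng1, Zmat3, Trp53inp1 and Phlda3 also did not overlap between the groups, with mean shifts of 1.11, 1.33, 1.30, 1.45 and 0.74. For each of these 6 ratios the exact 2-sided permutation p was 0.1, the smallest that 3 against 3 libraries allow. All of them share Cdkn1a, whose own levels did not overlap, so they are not independent of each other or of its rise. The ratios to Bbc3, Pmaip1 and Eda2r overlapped between the groups, with mean shifts of 0.72, 0.65 and -0.32 (exact 2-sided permutation p = 0.2, 0.5 and 0.6). The shift against Eda2r was thus in the opposite direction, but Eda2r passed the filter only through the light damage group.

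**Figure D3:**
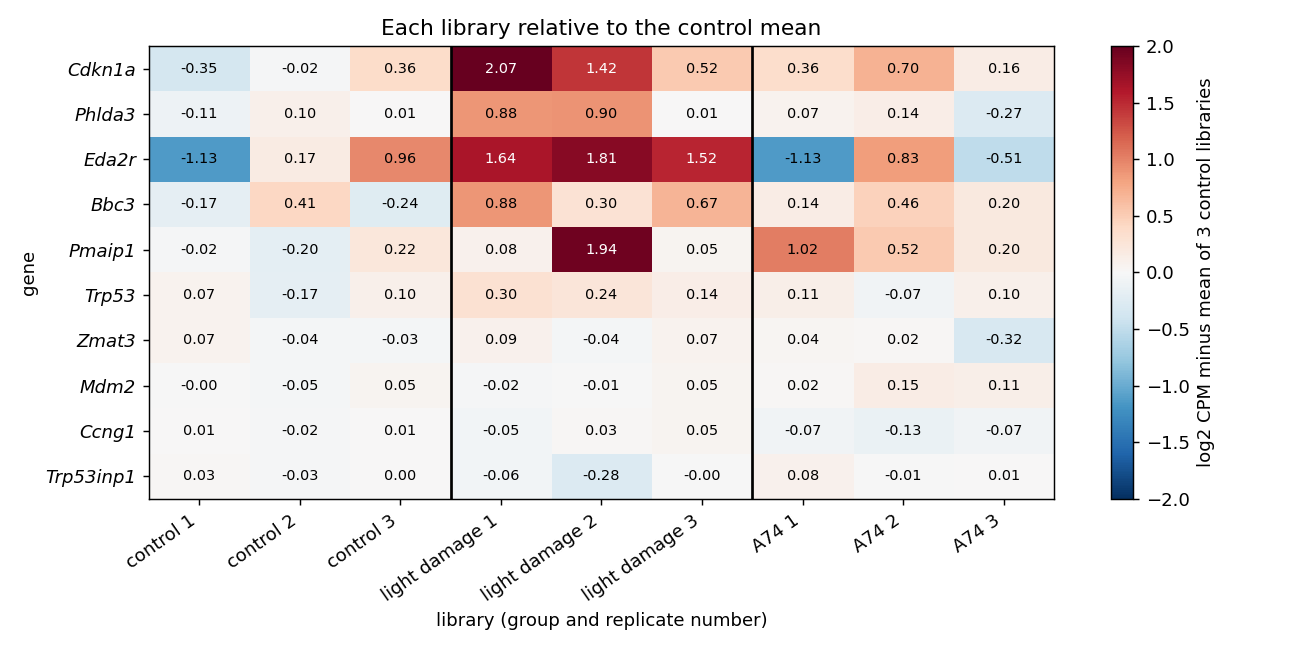
Log2 CPM of each gene (rows) in each library (columns) minus the mean of the 3 control libraries, red for higher and blue for lower, with the value printed in each cell. Cdkn1a is at 2.07 and 1.42 in light damage replicates 1 and 2 and Phlda3 at 0.88 and 0.90, while Mdm2 and Ccng1 stay between -0.05 and 0.05 in the light damage libraries.

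Among the other 9 genes, Phlda3 was the one whose level over the 9 libraries was most like that of Cdkn1a (Pearson r = 0.90, Spearman rho = 0.73). With the group means removed r was 0.85. These values describe 9 libraries that share 3 groups, and without light damage replicates 1 and 2, the libraries farthest from the median of Cdkn1a, r was 0.46, so the likeness rests on those libraries. Eda2r (r = 0.75), Trp53 (0.68) and Bbc3 (0.66) came next. Of the genes compared at a mean of at least 1 CPM, 98.3% had a lower r with Cdkn1a than Phlda3 had. The share was 87.4% for Eda2r, 82.1% for Trp53 and 80.7% for Bbc3, so many other genes were as like Cdkn1a as these. Without the same 2 libraries r was 0.66 for Eda2r, 0.11 for Trp53 and 0.51 for Bbc3. For Mdm2 r was -0.14 over all 9 libraries and 0.65 without the 2, so its sign turns with them. For Ccng1 r was -0.072 and -0.35, for Trp53inp1 -0.60 and -0.12, for Pmaip1 0.40 and 0.51 and for Zmat3 0.25 and 0.098, over all and without the 2. By the same measure, taken over 13638 genes, the closest to Cdkn1a were Txnip (r = 0.98), which encodes a thioredoxin-binding protein, Rab32, Acot7, Tyro3 and Ifih1, the last an interferon-stimulated RNA sensor gene (r = 0.97 each). None of these is among the p53 targets listed here. Txnip went from 7.06 CPM in control to 10.6 CPM after light damage and 8.23 CPM with A74, and Ifih1 from 3.71 to 16.7 and 4.73 CPM.

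Light damage replicate 3 was the low library of its group for both called genes, and it also differed from the other 2 in further respects. Its microglia and macrophage markers summed to 241 CPM, against 326 and 403 in the other 2 and 85.2 to 94.3 in control, and 12 of these 14 genes rose over the whole group. Its reactive gliosis genes summed to 481 CPM, against 610 and 674 in the other 2 and 159 to 163 in control, with 12 of 12 called higher. Its rod markers summed to 53853 CPM, against 36782 and 46433 in the other 2 and 62018 to 67636 in control, with 9 of 14 called lower. In this library glial and microglial genes were well above control, Cdkn1a was just above every control library and Phlda3 was inside the control range. Over light damage replicates 1 to 3, Cdkn1a (8.84, 5.62 and 2.95 CPM) and the microglia and macrophage sums (403, 326 and 241 CPM) fell in the same order. Rod sums rose in that order (36782, 46433 and 53853 CPM), while gliosis sums did not follow it (610, 674 and 481 CPM). The part of cell composition in the change of Cdkn1a was not tested, and in bulk tissue more cells of a type and more RNA per cell cannot be told apart.

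**Figure D4:**
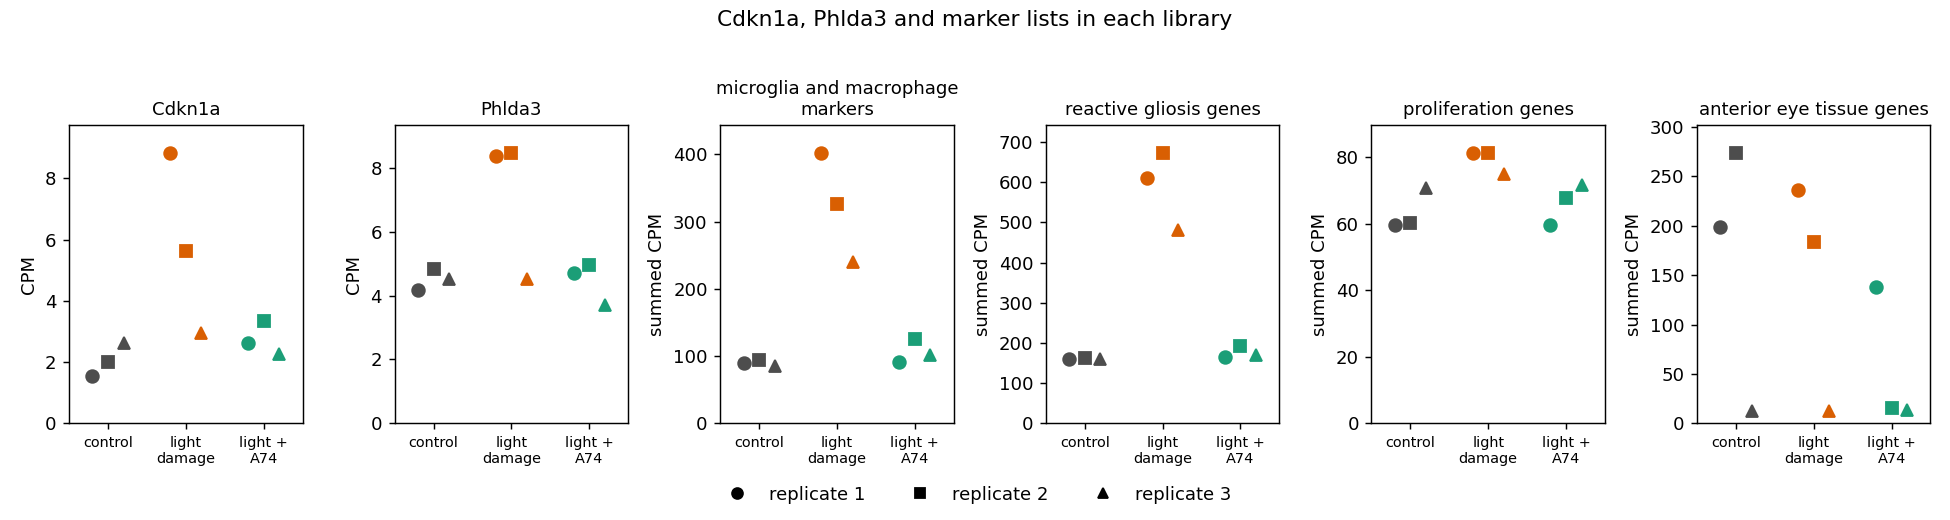
Cdkn1a and Phlda3 in CPM and summed CPM of 4 gene lists (y axes, linear from 0) in each library, shaped by replicate number. Light damage replicate 3 (orange triangle) is at 2.95 CPM for Cdkn1a and 4.53 for Phlda3, but at 241 CPM for microglia markers and 481 CPM for gliosis genes, above all control and A74 libraries.

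The same library was low in anterior tissue genes and had no Y-linked counts, so the comparison was also read within the tissue sets. Between the 2 light damage and 2 control libraries with more anterior RNA, the log2 fold change was 2.01 for Cdkn1a and 0.90 for Phlda3 (edgeR adjusted p = 5.51e-06 and 0.00103). Trp53 (0.32, edgeR adjusted p = 0.0309), Pmaip1 (1.65, edgeR adjusted p = 0.0395) and Eda2r (2.91, edgeR adjusted p = 0.00811) were also called there, Eda2r again with a filter that rests on this group, and Mdm2 and Ccng1 were not. The share of all genes called within this set is not given beside these calls. Between the 1 light damage and 1 control library with less anterior RNA, which borrow their spread from the others, Cdkn1a had 0.17 and Phlda3 0.0028, and no member was called. The difference between the sets was 1.84 for Cdkn1a (edgeR adjusted p = 0.0844) and 0.90 for Phlda3 (edgeR adjusted p = 0.308), so neither passed the threshold. Among control and light damage libraries the anterior and Y-linked splits coincide and cannot be told apart.

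The second comparison asked how the same genes stood with A74 after light damage. With A74, levels of Cdkn1a, Phlda3 and Eda2r were below those of light damage, and the other 7 genes were not called. Cdkn1a and Phlda3 are 2 of the 9 members other than Eda2r, beside 18.3% of all genes tested. Both were lower, beside 9.19% of all genes, and none of the 9 was higher, beside 9.07%. The median log2 fold change of the 9 genes was -0.18, beside -0.00031 for all genes. This comparison shares the light damage libraries with the first, so its values are not independent of those above. All 3 A74 libraries were high in Xist (17227 to 18172 counts) and no light damage library was (at most 4 counts). A difference tied to Xist state and a difference tied to A74 therefore cannot be told apart here.

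Cdkn1a had 41, 56 and 34 counts with A74, or 2.61, 3.35 and 2.26 CPM, in replicates 1 to 3. These 3 libraries lay close together and overlapped with light damage replicate 3 (2.95 CPM). The difference on the log2 scale was -1.08 (SE 0.34, 95% interval -1.82 to -0.34, edgeR adjusted p = 0.0438). Phlda3 had 4.72, 4.96 and 3.72 CPM with A74, again overlapping with light damage replicate 3, and stood at -0.68 (log2, with SE 0.22) against light damage, at an edgeR adjusted p of 0.0381. Both calls were near the threshold. Of the 9 fits that leave out 1 library, they held only in the one without light damage replicate 3, where the log2 fold change was -1.38 for Cdkn1a and -0.91 for Phlda3 (edgeR adjusted p = 0.0004 and 0.000884). In the other 8 the adjusted p was 0.0513 to 0.179 for Cdkn1a and 0.0516 to 0.175 for Phlda3. With Y-linked counts as a term in the fit, Cdkn1a had -0.72 (edgeR adjusted p = 0.397) and no member was called.

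Microglia and macrophage markers summed to 91.9 to 126 CPM with A74, and 13 of the 14 genes fell against light damage. Reactive gliosis genes summed to 165 to 193 CPM, and 12 of 12 fell. Their part in the fall of Cdkn1a and Phlda3 was not tested.

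Eda2r had 0, 6 and 1 counts with A74 in replicates 1 to 3, below the 10 to 16 counts of the light damage libraries, and its difference on the log2 scale was -2.28 (SE 0.75, edgeR adjusted p = 0.0453). The call held in 4 of 9 fits that leave out 1 library. Trp53 with A74 (19.4 to 22.1 CPM) lay just below light damage (22.4 to 25.1 CPM) without overlap, but its log2 fold change of -0.18 was not called (edgeR adjusted p = 0.228). Ccng1 also did not overlap, at 145 to 152 CPM with A74 against 154 to 165 CPM, with a log2 fold change of -0.10 (95% interval -0.21 to 0.01, edgeR adjusted p = 0.202). Apart from Eda2r, Trp53 and Ccng1 were the 2 of 9 genes with every A74 library below every light damage library, beside 17.7% of all genes. Mdm2 was 90.0 to 98.2 CPM with A74 and Trp53inp1 53.4 to 57.1 CPM, with log2 fold changes of 0.09 and 0.14 that were not called (edgeR adjusted p = 0.307 and 0.201). Zmat3 was low in 1 library, A74 replicate 3, at 36.2 CPM against 46.0 and 46.6 CPM in the other 2. Bbc3 (2.23 to 2.81 CPM) and Pmaip1 (9 to 18 counts) overlapped with light damage and were not called.

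Set against control, A74 after light damage gave no called member, beside 0.892% of all genes called in this comparison. At an unadjusted p under 0.05 the count was also 0 of 10 members, beside 2742 of 17272 genes, and DESeq2 called no member. Ccng1 was the 1 gene with every A74 library below every control library, beside 11.0% of all genes. Cdkn1a had a log2 fold change of 0.41 with a 95% interval of -0.39 to 1.22, which overlaps the interval of 0.73 to 2.26 for light damage. Phlda3 had -0.01 (95% interval -0.48 to 0.46) and Trp53 0.05 (95% interval -0.16 to 0.26). For Mdm2 the interval was -0.03 to 0.21 and for Ccng1 -0.20 to 0.02.

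Levels per kilobase of merged exon length (GENCODE M21, build GRCm38) ordered the genes over a wide range. In control, Ccng1 was at 45.3 CPM per kilobase, Mdm2 at 17.5, Trp53inp1 at 8.32, Trp53 at 5.06, Zmat3 at 3.97, Phlda3 at 2.89, Bbc3 at 0.968, Cdkn1a at 0.579, Pmaip1 at 0.186 and Eda2r at 0.033. No neighbours in this order overlapped between control libraries. After light damage the mean of Phlda3 (4.57) lay above that of Zmat3 (4.08) and the mean of Cdkn1a (1.63) above that of Bbc3 (1.50), but the libraries of both pairs overlapped. With A74 the order was as in control, with overlap only between Zmat3 and Phlda3. The targets with steady values were thus the abundant ones, and the 2 that rose were low in control retina. Bbc3, Pmaip1 and Eda2r were also low in control and were not called after light damage.

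A further 45 p53 targets, in 3 lists drawn up with earlier results of these data known, show what the rest of the target set did. Of the 40 that passed the filter, 12 rose and 4 fell after light damage, 30% and 10%, beside 13.0% and 12.8% of all genes, with a median log2 fold change of 0.22. Among 9 targets of apoptosis, Steap3, an iron reductase gene, rose by 0.74 (edgeR adjusted p = 0.00268) and Ei24 by 0.16 (edgeR adjusted p = 0.0390). Bax, the pore-forming apoptosis effector, had 0.24 and was not called (edgeR adjusted p = 0.109). Fas, the death receptor gene, was under the filter and is named after its values were seen. It had 5, 7 and 2 counts in control, 28, 57 and 9 after light damage and 9, 7 and 4 with A74, so it too was high in light damage replicates 1 and 2.

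Among 15 targets of DNA repair and metabolism, 4 rose and 2 fell after light damage. Fuca1, a lysosomal fucosidase gene, rose by 0.58 (edgeR adjusted p = 5.86e-05) and Ak1, an adenylate kinase gene, by 0.28. Rps27l rose by 0.87, but it is near-identical to other ribosomal protein genes, and reads may be split between them. Tigar, which encodes a fructose bisphosphatase that restrains glycolysis, fell by 0.54 (edgeR adjusted p = 0.00018). Ddb2, a DNA damage recognition gene named after its values were seen, was the other that fell, by 0.31 (edgeR adjusted p = 0.0311). Among 16 targets of arrest, signalling and secretion, 6 rose and 2 fell. The cytokine gene Lif rose by 2.12, the stress transcription factor gene Atf3 by 0.85 and Ier5 by 0.50, while Prdm1, a transcription factor gene of photoreceptor and bipolar fate, fell by 0.65 (edgeR adjusted p = 0.000373). Lif and Atf3 are known to be induced by other stress pathways as well.

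With A74 against light damage, 9 of these 40 targets were lower and 6 higher, beside 9.19% and 9.07% of all genes. Lif fell by 1.60, Perp, an apoptosis-linked membrane protein gene, by 0.80, Fuca1 by 0.51 and Steap3 by 0.50 on the log2 scale (edgeR adjusted p = 0.000277 to 0.0454). Tigar was higher by 0.34, Prdm1 by 0.62, the polymerase gene Polh by 0.63 and the p53 phosphatase gene Ppm1d by 0.40. Atf3 was the only one called against control with A74, at 1.25 (edgeR adjusted p = 0.000189), from 7.34 to 17.5 CPM. The targets beyond the 10 members thus moved in both directions in each of the first 2 comparisons.

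**Figure D5:**
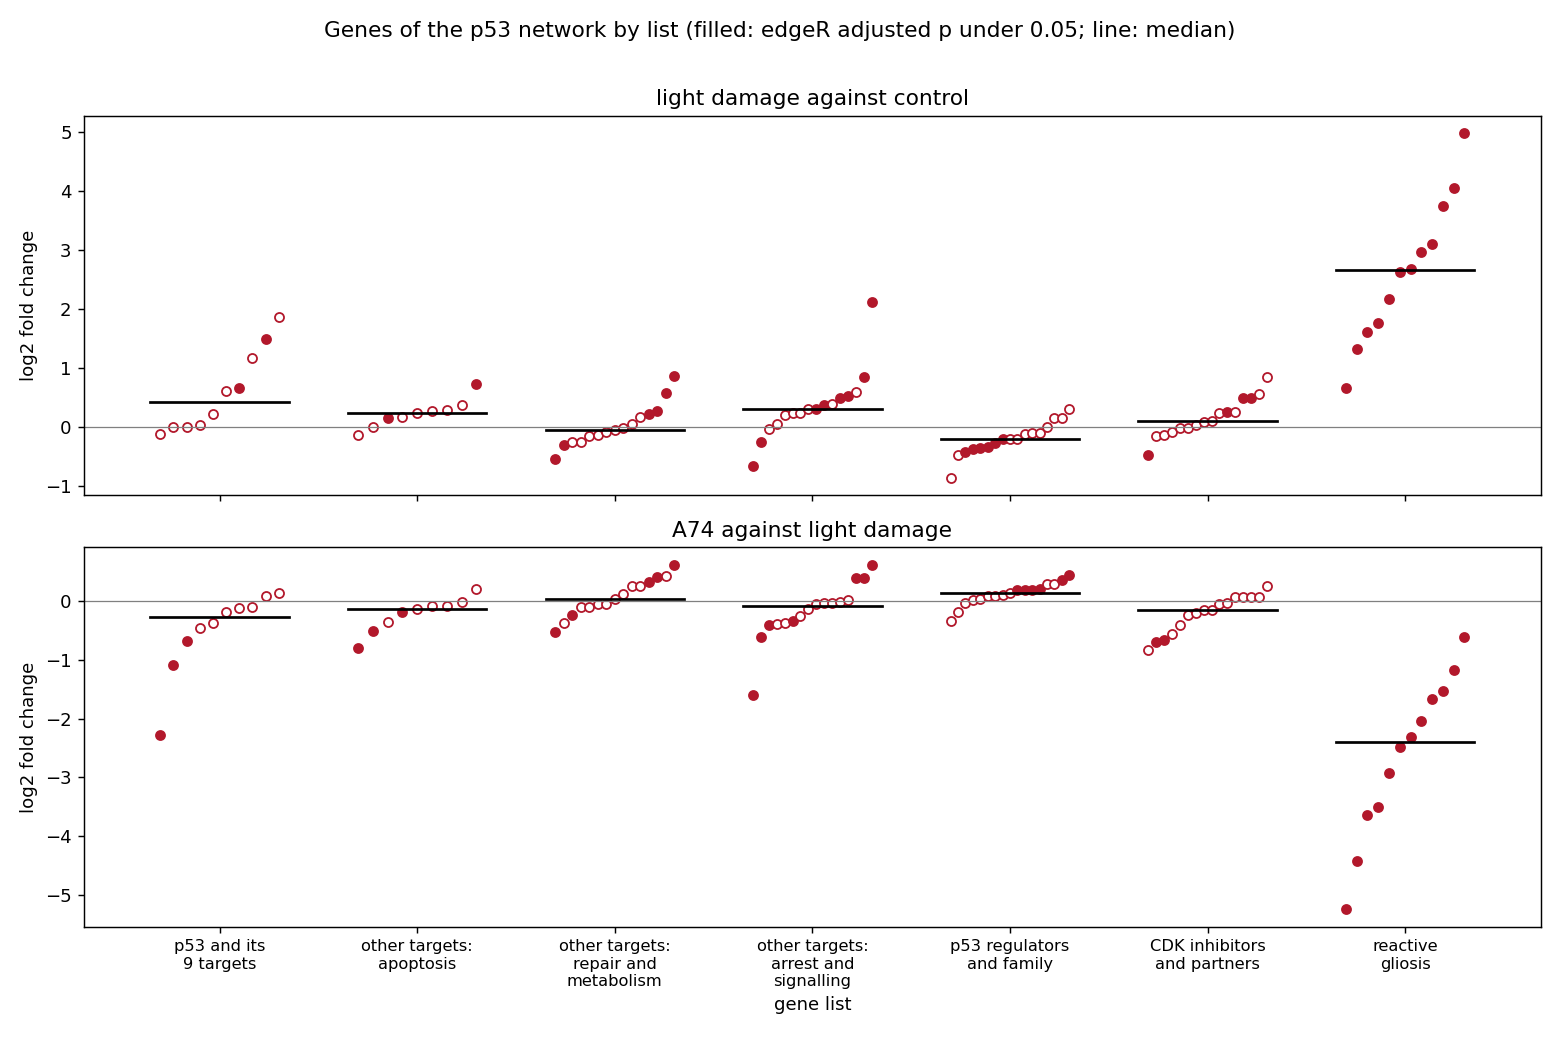
Log2 fold change (y axis) of every tested gene in 6 lists of the p53 network and in the reactive gliosis list (x axis), after light damage (top) and with A74 (bottom), with filled points called by edgeR and a line at the list median. The p53 lists hold changes on both sides of 0, with list medians between -0.20 and 0.42 after light damage (Eda2r included), while the gliosis median is 2.65. After light damage the change is above 0 for 9 of 10 members, 7 of 9 apoptosis and 13 of 16 arrest targets. It is above 0 for 6 of 15 repair targets, 3 of 17 regulators and 10 of 16 CDK genes, beside 51.1% of all genes.

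Of 17 tested genes that regulate p53 or belong to its family, 6 fell after light damage and none rose, 35.3% and 0% beside 12.8% and 13.0% of all genes. Mdm4, which holds p53 inactive beside Mdm2, fell by 0.37 (edgeR adjusted p = 0.00041), from 196 to 151 CPM. Trp53bp1, a double-strand break adaptor gene, fell by 0.33, Atr, a kinase gene of the DNA damage checkpoint, by 0.35 and the acetyltransferase gene Ep300 by 0.27. With A74, 6 of the 17 were higher than with light damage and none lower, 35.3% and 0% beside 9.07% and 9.19% of all genes. Among the 6 were the deacetylase gene Sirt1 (0.45, edgeR adjusted p = 0.00167), Mdm4 (0.19) and Trp53bp1 (0.20). Cdkn2a, the gene of the MDM2 inhibitor ARF, and the p53 relatives Trp63 and Trp73 were under the filter, with at most 4, 6 and 5 counts in a library.

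The p21 protein acts on complexes of cyclins and CDKs. Of 16 tested genes of CDK inhibitors and their partners, 3 rose after light damage, namely Ccnd1 (0.49), Cdk2 (0.50) and Cdk4 (0.27), and the inhibitor gene Cdkn2c fell by 0.47 (edgeR adjusted p = 0.0163 to 0.0412 for the 4). These shares of 18.8% higher and 6.25% lower are near the 13.0% and 12.8% of all genes. With the replicate number as a block, Cdk2 was not called (edgeR adjusted p = 0.0516). With A74, Ccnd1 fell by 0.69 and Cdk2 by 0.65 against light damage (edgeR adjusted p = 0.00552 and 0.0157). The p21 relatives Cdkn1b and Cdkn1c, named after their values were seen, had log2 fold changes of -0.0062 and -0.015 after light damage and were not called (edgeR adjusted p = 0.950 and 0.955). Of 17 transcription factor genes known to act on Cdkn1a other than p53, 6 rose and 3 fell after light damage, 35.3% and 17.6% beside 13.0% and 12.8% of all genes. Stat3 rose by 0.67 (edgeR adjusted p = 2.05e-05), Cebpa by 2.28 and Egr1 by 2.42, and Foxo3 fell by 0.28. With A74, Stat3 fell by 0.60, Cebpa by 1.47 and Cebpb by 1.61 against light damage. Whether any of these factors bears on Cdkn1a in these retinas was not tested.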

How the data were processed

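RNA of 9 retina libraries was measured, and the authors provided their result as a single table of counts by gene and library. By their values the deposited counts are raw, since they are whole and each library has its own total. The submitters' processing notes list Bowtie2, RSEM 1.3.1, DESeq2 1.4.5 and build GRCm39, but not what each did. Whether the counts are rounded estimates, and whether strand was used, is not given in the sources used here, so near-identical and overlapping genes are uncertain. Groups and replicate numbers came from the sample titles.

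Genes were kept by filterByExpr with a minimum count of 10. Counts were scaled by TMM and tested in 1 fit of the 9 libraries with the robust quasi-likelihood test of edgeR 4.0.16 (R 4.3.3), with Benjamini-Hochberg adjustment over all 17272 genes and calls at an adjusted p under 0.05. SE is the log2 fold change over the square root of F, and 95% intervals use the t quantile of the test. Log2 CPM used a prior count of 2. The test was checked on simulated data. The alternatives were other scaling and filtering, DESeq2 1.42.0, other terms and left-out libraries. Members and lists were chosen with earlier results of these data known. Named genes are the 10 members, up to 4 of each p53 or CDK list with the smallest adjusted p in a comparison, and the 8 most like Cdkn1a by Pearson r at a mean of at least 1 CPM, leaving out predicted and clone names. The library names number the light damage and A74 libraries otherwise than the titles, so a shared title number need not mark a pair. Replicate numbers in the titles were checked for pairing by the correlation of deviations from group means. It was 0.12, 0.25 and 0.31 for the same-numbered control and light damage libraries, over 0.1 in every pair. Replicate 3 of both groups was also low in anterior tissue genes and without Y-linked counts, so these values do not settle whether the libraries were paired. The main fit used no pairing, and the replicate number as a block was 1 of the alternatives. Same-numbered A74 libraries fell under 0.1 in at least 1 pair with each group. Replicates within each group differed by more than sampling noise. The GENCODE and RefSeq tables are of build GRCm38, so they gave exon lengths and promoter windows only.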

Additional observations from a re-analysis of the deposited data

How the results depend on the processing

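Cdkn1a kept its rise after light damage, and its call, under every alternative except within the libraries with less anterior RNA (0.17, edgeR adjusted p = 0.880). Its fall with A74 lost its call with only the 2 groups compared (-1.08, edgeR adjusted p = 0.0814), tissue set as a term (-0.95, edgeR adjusted p = 0.108), Y-linked counts as a term (-0.72, edgeR adjusted p = 0.397) and within the libraries with less anterior RNA (-0.066, edgeR adjusted p = 0.954). The cause was not tested. With the replicate number as a block it was -1.04 (edgeR adjusted p = 0.0566). Libraries with the same title number had a correlation of deviations over 0.1 in all 3 pairs of control with light damage. This held in 6 of 9 pairs in all (range -0.093 to 0.31), and 7 of 9 libraries correlated best with their own title number. The library names carry other numbers for light damage and A74, so these values do not settle pairing. After light damage the block changed no call among the members, and Cdk2 was the named gene that lost its call. Under the block 4588, 3362 and 136 genes were called in the 3 comparisons, against 4452, 3153 and 154.

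Members called, Eda2r included, numbered after light damage 4 without the count filter, 5 within the libraries with more anterior RNA, 0 within those with less, 4 with light damage replicate 3 and A74 replicate 1 left out (chosen after seeing the data), and 1 to 3 with each library left out. With A74 against light damage they numbered 1 with only the 2 groups compared, 1 with tissue set as a term, 0 with Y-linked counts as a term, 0 within the libraries with less anterior RNA, and 0 to 3 with each library left out. These counts of members are not set beside the share of all genes called under each setting. They show only how the calls varied, not a response of the set. With A74 against light damage and each library left out, the Cdkn1a log2 fold change ranged from -1.38 to -0.65. Its change less the median of the others, Eda2r included, was 0.13 after light damage and 0.053 with A74, a reversal, within the libraries with less anterior RNA. Genes called after light damage were 1103 within the libraries with less anterior RNA and 2818 to 5467 with each library left out. With A74 against light damage they were 745 with Y-linked counts as a term, 677 within the libraries with less anterior RNA and 1717 to 4514 with each library left out. With A74 against control they were 718 without the filter, 293 by DESeq2, 558 with only the 2 groups, 96 with Y-linked counts as a term, 398 within the libraries with less anterior RNA, 934 with both libraries left out and 21 to 416 with each left out.

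Sign changes were seen only for log2 fold changes that were not called under those settings. After light damage, Ccng1 had -0.0050 within the libraries with more anterior RNA, Mdm2 -0.0030, Pmaip1 -0.21 and Cdkn2c 0.022 within those with less, and Mdm2 -0.015 and Ccng1 -0.012 with both libraries left out. Leaving out each library gave -0.018 to 0.035 for Mdm2 and -0.0075 to 0.051 for Ccng1. With A74 against light damage, Pmaip1 had 0.052 with Y-linked counts as a term and 0.39 within the libraries with less anterior RNA, where Tnfrsf10b had 0.36, Zmat3 had 0.017 within those with more, and Pmaip1 had -0.78 to 0.65 with each library left out. With A74 against control, Phlda3 had 0.10 with tissue set, 0.30 with Y-linked counts and 0.065 within the libraries with more anterior RNA, where Bbc3 had -0.019, Zmat3 0.024 and Ppm1d -0.060. Trp53inp1 had -0.028 with Y-linked counts, -0.0018 within the libraries with less anterior RNA, where Trp53 had -0.085 and Cdkn2c 0.0017, and -0.00040 with both libraries left out, where Eda2r had 0.15. Leaving out each library gave -0.036 to 0.11 for Trp53, -0.088 to 0.11 for Phlda3, -2.34 to 0.57 for Eda2r, -0.00018 to 0.056 for Trp53inp1 and -0.14 to 0.035 for Zmat3. Pmaip1 and Eda2r had at most 44 and 16 counts in a library, which limits their precision.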
